A study of Homo sapiens with 6 samples.

Results

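Tumour cells carry surface proteins that restrain T cells, natural killer cells or macrophages, and the transcripts of 10 such ligands were followed here in lung adenocarcinoma cells. They are CD274 (PD-L1), PDCD1LG2 (PD-L2), CD276, VTCN1, PVR, NECTIN2, CD47, NT5E, LGALS9 and TNFRSF14. They were chosen by symbol, and each was 1 of the 28395 genes in the deposited table. The cells were HCC827, an established human lung adenocarcinoma line with an activating deletion in EGFR, and the question was how its transcripts respond when EGFR is blocked. RNA was sequenced from 6 libraries, 3 from cells given the vehicle DMSO (libraries 1 to 3) and 3 from cells given 1 μM erlotinib, an inhibitor of the EGFR kinase (libraries 4 to 6), all after 24 h. All cells carry the same EGFR deletion and came from 1 line, cultured without immune cells, so the ligands were measured as transcripts of tumour cells and not on the cell surface. The labels do not say that the 3 libraries of a group came from separate cultures, and the p-values below measure only the spread between these libraries.

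An immune checkpoint is a receptor on an immune cell that lowers its activity once a ligand on another cell binds it. PD-L1 and PD-L2 bind PD-1 on T cells, PVR and NECTIN2 both bind the inhibitory receptor TIGIT and the activating receptor CD226, with CD96 as a further receptor of PVR and PVRIG of NECTIN2, and CD47 binds SIRPα on macrophages as a signal against engulfment. NT5E (CD73) acts as an enzyme, since it turns extracellular AMP into adenosine, which dampens T cells through adenosine receptors.

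The values are reads on a gene divided by the size factor of the library, called signal below. The libraries held 20858083, 24641819 and 21172884 reads on genes in DMSO, and 21944007, 20760204 and 21678395 with erlotinib. Differences were tested with limma, on log2(signal + 1), in the 14215 genes whose mean signal reached 10, with Benjamini-Hochberg adjustment over all of them, and log2 fold changes below are erlotinib against DMSO on that scale, where the value of a low gene depends on the pseudocount of 1. EGFR itself had a signal of 77915, 82437 and 78583 in DMSO and of 42831, 43954 and 49830 with erlotinib, without overlap, and a log2 fold change of -0.81 (95% interval -0.96 to -0.66, adjusted p = 2.4e-09, limma).

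The libraries carried the markers of the labelled cell type. EPCAM, an epithelial adhesion protein, averaged 9852 ± 235.4 without the drug and 9485 ± 280.6 with it (SD, n = 3 each), and NKX2-1 and NAPSA, a lung lineage factor and a protease of lung epithelium, were present in both groups, and both rose, NKX2-1 from 3002 ± 209.2 to 8644 ± 408.4 (log2 fold change 1.53, adjusted p = 5.2e-14, limma) and NAPSA from 986.3 ± 74.9 to 3733 ± 155.9 (1.92). SFTPC, the surfactant protein of alveolar type 2 cells, was nearly absent (0 in DMSO and 0.624 with erlotinib). Of the 22 markers of other cell types, 6 reached a mean signal of 10, of which 3 were higher with erlotinib, 0 were lower and 3 did not pass. Their summed signal was 3045, 3025 and 3456 in DMSO and 3676, 3937 and 3837 with erlotinib, nearly all of it CD68 (2898 ± 206 and 3394 ± 166.8), a lysosomal protein known from macrophages and also made by other cells. CD68 rose by 0.23 on the log2 scale (adjusted p = 0.0076, limma), and without erlotinib library 5 it did not pass (0.20, adjusted p = 0.051). With TMM factors, or without DMSO library 2, erlotinib library 4 or erlotinib library 5, 1 of the markers was lower in place of 0. The part of these markers in the results on the ligands was not tested. The defining markers of leukocytes and T cells were at or near 0, with a mean signal in DMSO and erlotinib of 1.78 and 4.75 for PTPRC and of 1.81 and 1.54 for CD3E, and MS4A1 was listed at 0 in all 6 libraries. COL1A1 (77.7 ± 15.3 and 216 ± 27.9) and VWF (3.94 ± 3.32 and 27.5 ± 6.93) also rose, with log2 fold changes of 1.47 (adjusted p = 6.8e-07, limma) and 2.75 (adjusted p = 6.6e-04, limma), while COL1A2, made with COL1A1 in fibroblasts, was at 0.997 and 0. With a pseudocount of 10 the value of VWF was 1.44. The 3 tested markers that did not pass had lower means with erlotinib. They were PECAM1, an endothelial marker like VWF (15.7 and 10.4, log2 fold change -0.55), CSF1R, a macrophage receptor (126.6 and 94.3, -0.43), and CD79A, of B cells (17.8 and 8.39, -1.28), and the groups did not overlap for CSF1R and CD79A.

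Erlotinib moved the ligands in both directions. Of the 10 genes, 9 reached the minimum for testing. CD274, NT5E, PVR and CD276 fell, VTCN1, LGALS9, CD47 and NECTIN2 rose, and PDCD1LG2 did not pass. These are 4 of 9 in each direction (44.4% each), against 35.3% of all 14215 tested genes that were higher and 35.4% that were lower by the same test, so the drug moved a large share of all genes and a high share of called ligands has to be read against that. The count of higher ligands was 3 with TMM factors, at a threshold of 0.01 and without DMSO library 2 or 3 or erlotinib library 5 or 6, and 2 with at least 10 reads required in every library, which VTCN1 and LGALS9 do not reach. In 5 of the 9 the change passed the test and was at least 1 log2 unit, against 27.8% of all tested genes. PVR, one of the 5, lay at that cutoff (-1.013), with -1.043 to -0.833 over the alternatives, so in some of them it fell short. The groups did not overlap for 3 ligands that were higher and 5 that were lower with erlotinib, as for 36.7% and 36.9% of all tested genes. Their median log2 fold change was -0.31, against 0.02 over all tested genes.

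**Figure D1:**
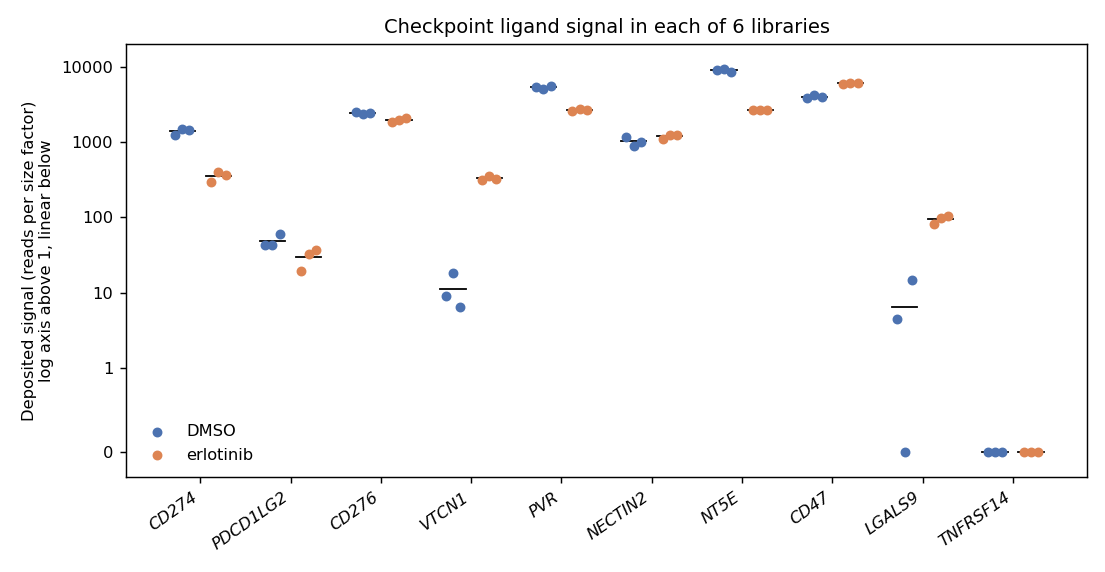
Signal (reads per size factor, log axis above 1 and linear below) of the 10 ligands in each library, with DMSO in blue, erlotinib in orange, 1 point per library and a line at the mean of each group (n = 3). VTCN1 and LGALS9 lie far higher with erlotinib, CD274, NT5E and PVR lie lower, NECTIN2 overlaps between the groups and TNFRSF14 is listed at 0 throughout.

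CD274, the main PD-1 ligand of tumour cells, fell most among the ligands. Its signal was 1252, 1478 and 1425 in DMSO and 298.1, 400.9 and 369.7 with erlotinib. The highest erlotinib library lay far below the lowest DMSO library, and the ratio of the means was 3.89 (DMSO to erlotinib). The log2 fold change was -1.96 (standard error 0.11, 95% interval -2.19 to -1.73, adjusted p = 2.0e-12, limma). CD274 lies on chromosome 9, 5450542 to 5470554 of GRCh38 (RefSeq), and overlaps the long non-coding RNA INCR1, which was not analysed here. PDCD1LG2, the second PD-1 ligand, follows 39976 bases after it on the same chromosome (5510531 to 5571282) and overlaps INCR1 too.

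PDCD1LG2 was scarce, at 38 to 56 recovered reads per DMSO library and 21 to 39 per erlotinib library. The signal was 43.1, 42.7 and 59.9 in DMSO and 19.4, 32.7 and 36.5 with erlotinib, and all erlotinib libraries lay below all DMSO libraries. Its log2 fold change of -0.73 (95% interval -1.42 to -0.04) missed the threshold (adjusted p = 0.056, limma). Without erlotinib library 4, the lowest, the value was -0.46 (adjusted p = 0.25), and without erlotinib library 6 it was -0.90 and passed (adjusted p = 0.043). Per kb of transcript, the CD274 signal was 19.4, 23.1 and 15.9 times that of PDCD1LG2 in DMSO and 10.3, 8.21 and 6.78 times with erlotinib. The groups did not overlap, and p was 0.10 in a two-sided exact permutation test, the smallest that 3 libraries against 3 allow. The size of these ratios is approximate, because the aligner did not split reads across introns and the isoforms expressed were not analysed.

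Of the other genes with a row in the table within 200 kb of the pair, PLGRKT, a plasminogen receptor next to CD274, also fell, from 283 ± 34.4 to 129 ± 11.5 (log2 fold change -1.12, adjusted p = 1.6e-06, limma). RIC1 fell less (1183 ± 69.3 to 1031 ± 41.8, log2 fold change -0.20, adjusted p = 0.039, limma). The relaxin genes RLN2 (76.0 and 55.9) and RLN1 (24.3 and 16.7) did not pass. PLGRKT, RIC1, RLN1 and RLN2 were chosen for their position and were not followed in the alternative analyses. Scaling to total counts moved CD276 from -0.309 to -0.129, where it no longer passed, and PVR from -1.013 to -0.833. The fall of RIC1 (-0.198) was smaller than that of CD276 before this scaling. It may therefore depend on the scaling, and the value of RIC1 with total counts was not looked up.

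CD276 (B7-H3) and VTCN1 (B7-H4) are B7 family members whose inhibitory receptors on T cells are not settled, and they moved in opposite directions. CD276 (chromosome 15, 73683944 to 73714514) changed little, with a signal of 2504, 2350 and 2441 in DMSO and 1844, 1963 and 2087 with erlotinib. Its 3 erlotinib libraries lay below its DMSO libraries, with a log2 fold change of -0.31 (standard error 0.07, 95% interval -0.46 to -0.16, adjusted p = 7.8e-04, limma). When each library was scaled to its total count, the value was -0.13 and no longer passed (adjusted p = 0.12).

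VTCN1 (chromosome 1, 117143587 to 117210927) went from nearly absent to a moderate level. Its signal was 9.08, 18.6 and 6.42 in DMSO and 314.7, 353.4 and 322.9 with erlotinib. In recovered reads that is 6 to 20 per DMSO library against 341 to 357 per erlotinib library, and the ratio of the mean signals was 29.1. The log2 fold change was 4.87 (standard error 0.30, 95% interval 4.23 to 5.50, adjusted p = 9.7e-12, limma), and 4.03 with a pseudocount of 10. A copy of its transcript lies on chromosome 20, over 95.8% of the length at 93.6% identity, and was not analysed here. Its part in the reads was not tested.

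**Figure D2:**
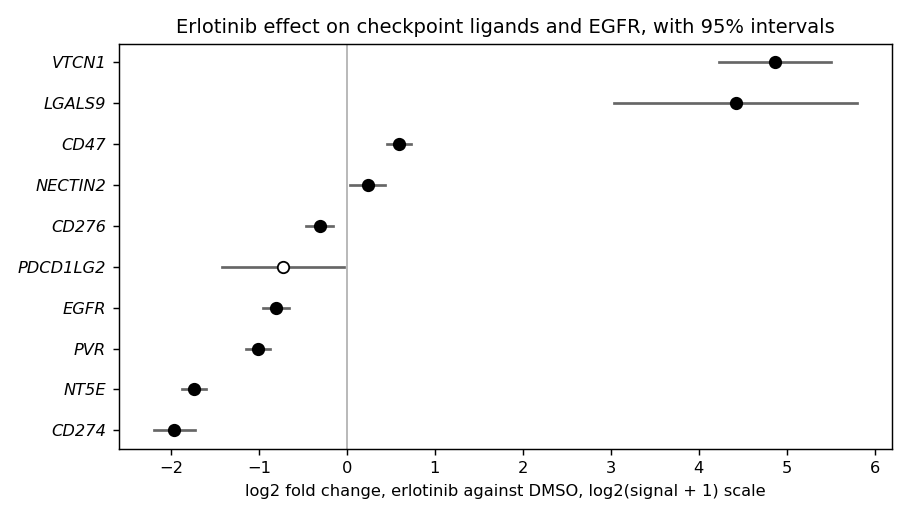
Log2 fold change of the 9 tested ligands and EGFR, erlotinib against DMSO on the log2(signal + 1) scale (points), with 95% intervals (lines), filled where the adjusted p-value was under 0.05. VTCN1 and LGALS9 lie above 4, CD274 and NT5E below -1.7, and the open point of PDCD1LG2 marks the gene that did not pass.

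The promoters of the ligands with the largest changes, VTCN1 and LGALS9 among those that rose and CD274 and NT5E among those that fell, are shown because the changes are in transcript level. Each run is 250 bases before the RefSeq start and 30 from it on (GRCh38.p14), in the direction of transcription, with matches to 4 motifs in capitals. The motifs, searched on both strands, were AP-1 (TGANTCA), the interferon-gamma site GAS (TTCNNNGAA), an interferon element (GAAANNGAA) and the TEAD site (GGAATG). They are found in 7.38%, 7.5%, 7.84% and 13.3% of 27305 promoters of this length. Coordinates are chr9:5450292-5450571 (plus strand) for CD274, chr6:85449833-85450112 (plus) for NT5E, chr1:117210898-117211177 (minus) for VTCN1 and chr17:27630938-27631217 (plus) for LGALS9.
CD274: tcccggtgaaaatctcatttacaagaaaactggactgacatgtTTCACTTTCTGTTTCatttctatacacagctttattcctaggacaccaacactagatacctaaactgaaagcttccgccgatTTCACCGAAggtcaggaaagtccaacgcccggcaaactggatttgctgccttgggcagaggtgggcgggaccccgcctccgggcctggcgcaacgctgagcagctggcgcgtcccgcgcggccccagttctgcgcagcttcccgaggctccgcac
NT5E: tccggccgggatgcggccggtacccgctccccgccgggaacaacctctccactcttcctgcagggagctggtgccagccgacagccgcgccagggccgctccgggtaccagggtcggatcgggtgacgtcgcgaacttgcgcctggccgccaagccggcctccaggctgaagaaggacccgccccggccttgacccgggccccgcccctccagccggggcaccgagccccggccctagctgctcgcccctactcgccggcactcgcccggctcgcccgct
VTCN1: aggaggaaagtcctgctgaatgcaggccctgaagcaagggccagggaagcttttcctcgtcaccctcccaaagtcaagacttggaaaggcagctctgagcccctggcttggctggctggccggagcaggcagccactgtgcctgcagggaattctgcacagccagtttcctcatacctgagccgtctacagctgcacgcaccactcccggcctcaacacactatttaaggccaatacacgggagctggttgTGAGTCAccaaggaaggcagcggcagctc
LGALS9: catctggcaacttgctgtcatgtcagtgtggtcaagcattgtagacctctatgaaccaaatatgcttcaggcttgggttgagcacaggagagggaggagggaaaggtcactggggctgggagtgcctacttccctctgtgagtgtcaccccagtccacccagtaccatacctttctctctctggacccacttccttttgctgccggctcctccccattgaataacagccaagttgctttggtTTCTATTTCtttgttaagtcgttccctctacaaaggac
Counting the base before the start as -1 and the start as 1, CD274 held a GAS match from -125 and 2 interferon elements on the opposite strand, from -207 and -201, which overlap each other. VTCN1 held an AP-1 match from base 2, LGALS9 an interferon element on the opposite strand from -8, and NT5E none of the 4. Of the other ligands, 5 had a promoter entry, with a TEAD match in PVR (-182) and TNFRSF14 (-48) and no match in CD276, CD47 and NECTIN2. A match describes letters, and binding of a factor was not measured.

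PVR and NECTIN2, the pair of ligands shared by TIGIT, lie on chromosome 19 (44643910 to 44666162 and 44846297 to 44889223). PVR had a signal of 5304, 5131 and 5618 in DMSO and 2567, 2719 and 2663 with erlotinib. The groups lay far apart, with a ratio of the means of 2.02 (DMSO to erlotinib) and a log2 fold change of -1.01 (standard error 0.07, 95% interval -1.15 to -0.87, adjusted p = 2.0e-11, limma). PVR overlaps the microRNA gene MIR4531, at a mean signal of 1.62 and 1.25, and CEACAM19, at 29.6 ± 3.02 in DMSO and 55.4 ± 4.92 with erlotinib (log2 fold change 0.89, adjusted p = 0.011, limma). How many reads lie in the shared stretches was not analysed here.

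NECTIN2 had a signal of 1166, 890.6 and 1011 in DMSO and 1113, 1256 and 1224 with erlotinib. The groups overlapped, since DMSO library 1 lay above erlotinib library 4. The log2 fold change of 0.23 (95% interval 0.03 to 0.44) passed narrowly (adjusted p = 0.035, limma), and it did not pass with TMM factors (0.22, adjusted p = 0.051) or without DMSO library 2 (0.14, adjusted p = 0.12), DMSO library 3 (0.23, adjusted p = 0.080), erlotinib library 5 (0.20, adjusted p = 0.13) or erlotinib library 6 (0.22, adjusted p = 0.10). With scaling to total counts it was 0.41 (adjusted p = 6.5e-04). Per kb of transcript, the PVR signal was 2.11, 2.68 and 2.58 times that of NECTIN2 in DMSO and 1.07, 1.01 and 1.01 times with erlotinib. The groups did not overlap, with p = 0.10 in a two-sided exact permutation test, the smallest possible here. This ratio and that of CD274 to PDCD1LG2 were the 2 computed (adjusted p = 0.10 for both, Benjamini-Hochberg, exact permutation), and both pairs were chosen after the values were seen. As for that pair, the size of the PVR to NECTIN2 ratio is approximate.

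CD47 (chromosome 3, 108043091 to 108091031) rose in every erlotinib library. Its signal was 3860, 4247 and 3943 in DMSO and 5864, 6149 and 6090 with erlotinib, without overlap and with a ratio of the means of 1.502. The log2 fold change was 0.59 (standard error 0.07, 95% interval 0.45 to 0.72, adjusted p = 6.9e-08, limma).

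NT5E (chromosome 6, 85450083 to 85495784) had the highest signal per kb of the ligands in DMSO and fell. Its signal was 9107, 9232 and 8566 in DMSO and 2698, 2674 and 2683 with erlotinib. The groups lay far apart, with a ratio of the means of 3.34 (DMSO to erlotinib) and a log2 fold change of -1.74 (standard error 0.06, 95% interval -1.87 to -1.61, adjusted p = 1.9e-15, limma).

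LGALS9 encodes galectin-9, a secreted and surface lectin described as a ligand of TIM-3 (HAVCR2). The gene (chromosome 17, 27631188 to 27649560) had a signal of 4.54, 0 and 15.0 in DMSO and of 82.1, 97.02 and 106 with erlotinib. All erlotinib libraries lay above all DMSO libraries, of which library 2 held 0 reads. The ratio of the means was 14.6, and the log2 fold change was 4.42 (standard error 0.66, 95% interval 3.04 to 5.80, adjusted p = 5.0e-06, limma). That value depends on the pseudocount, at 2.77 with 10 and 5.63 with 0.1, and on single DMSO libraries, at 3.34 without library 2 and 5.34 without library 3. On recovered reads it was 3.91 with edgeR and 3.88 with DESeq2. The genome holds its paralogs LGALS9B and LGALS9C on the same chromosome, at 96.1% and 96.0% identity, both listed at 0 in all libraries, and reads that map equally well to more than 1 copy are not uniquely mapped.

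TNFRSF14 (HVEM), which binds BTLA and CD160, was listed at 0 in all 6 libraries and its level is not known from these data. Its transcript is also present, over 100% of its length at 100% identity, on an alternate contig of the assembly, and reads that map to both places are lost where only uniquely mapped reads are counted. B2M, which nearly every cell expresses, also has such a copy and a mean signal of 0.714 in DMSO and 1.58 with erlotinib. Whether the contigs were in the reference used was not given in the sources used here. TNFRSF14 overlaps TNFRSF14-AS1, also at 0.

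Signal divided by the length of the canonical transcript gives an approximate order of the ligands. The aligner did not split reads across introns and the isoforms expressed were not analysed, so levels of different genes compare only roughly. In DMSO the order was NT5E (2518 ± 99.5 per kb), PVR (923.9 ± 42.6), CD47 (759 ± 38.5), CD276 (737.9 ± 23.5), CD274 (381.1 ± 32.4), NECTIN2 (380.2 ± 51.3), PDCD1LG2 (19.98 ± 4.04), VTCN1 (4.36 ± 2.45) and LGALS9 (3.77 ± 4.46). CD47 and CD276, CD274 and NECTIN2, and VTCN1 and LGALS9 overlapped in their libraries, and the other neighbours did not. With erlotinib the order was CD47 (1140 ± 28.5), NT5E (753.8 ± 3.47), CD276 (596.2 ± 36.8), PVR (457.5 ± 13.3), NECTIN2 (445.3 ± 28.0), VTCN1 (126.8 ± 7.83), CD274 (98.0 ± 14.5), LGALS9 (55.1 ± 6.93) and PDCD1LG2 (12.1 ± 3.70), and only PVR and NECTIN2 overlapped. On this scale CD47 thus passed NT5E, and VTCN1 lay above CD274.

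**Figure D3:**
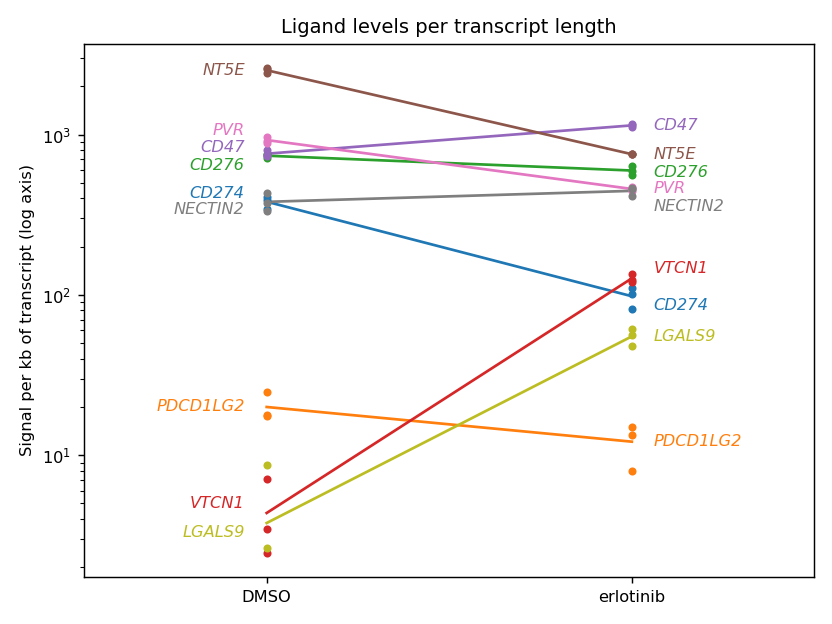
Signal per kb of canonical transcript (log axis) of the 9 ligands with reads, in DMSO and with erlotinib, with 1 point per library (a DMSO library of LGALS9 at 0 is not drawn) and a line between the group means. NT5E starts highest at 2518 and ends at 753.8, CD47 ends highest at 1140, and the lines of VTCN1 and CD274 cross.

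Around the ligands, genes of the same systems were followed in 10 lists, described by their counts beside the shares of all tested genes given above. Means are given ± SD (n = 3 libraries), and signal in these lists is not divided by transcript length. Of 20 other B7, butyrophilin and TNF family ligands of T cells, 13 were tested, with 7 higher, 2 lower and 4 that did not pass (median log2 fold change 1.198, against 0.02 for all tested genes). TNFSF10 (TRAIL), which triggers death receptors, rose from 51.4 ± 11.0 to 770.7 ± 53.6 (3.90), HHLA2, a B7 family ligand with the highest signal of the list, from 729.3 ± 42.0 to 4420 ± 88.0 (2.60), and BTN3A1, a butyrophilin sensed by gamma delta T cells, from 334.9 ± 32.7 to 1291 ± 43.6 (1.95). NCR3LG1, the B7-H6 ligand of natural killer cells, fell (220.3 ± 44.2 to 110.4 ± 24.5, log2 fold change -0.998), as did TNFSF9, the ligand of 4-1BB (403.6 ± 24.9 to 319.4 ± 4.61, -0.34, adjusted p = 0.014, limma). TNFSF9 did not pass with scaling to total counts (-0.16, adjusted p = 0.23).

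Among 20 nectins, nectin-like proteins and other ligands of inhibitory receptors, 14 were tested, with 8 higher, 3 lower and 3 that did not pass (median 0.51). CEACAM1, a ligand in the TIM-3 and CEACAM system, rose (77.6 ± 3.60 to 464.3 ± 26.6, log2 fold change 2.57), and overlaps LIPE-AS1, which also had more signal (1044 and 1798 on average). NECTIN4, an adhesion protein, rose from 85.6 ± 9.65 to 482.4 ± 8.64 (2.49), and CD24, the ligand of SIGLEC10 with the highest signal of the list, from 3223 ± 136.8 to 15962 ± 524.2 (2.31). CD24 has a near-identical copy elsewhere in the genome, so its counts are uncertain. NECTIN1 (642.3 ± 129 to 246.8 ± 26.3, -1.36), HMGB1 (-1.17), a chromatin protein that can be released and bound by TIM-3, and LGALS1 (-0.64) fell.

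Of the 8 NKG2D ligands, stress-induced activators of natural killer cells, 4 were tested. ULBP1, with the highest signal, rose from 61.4 ± 18.9 to 188.5 ± 17.5 (log2 fold change 1.65), RAET1E fell from 50.9 ± 8.74 to 8.74 ± 4.95 (-2.54), and 2 did not pass (median -0.33). Without erlotinib library 5, 2 were lower in place of 1. RAET1E held only 15, 4 and 9 recovered reads with erlotinib, and its log2 fold change ranged from -2.911 to -1.725 over the alternatives. MICA and MICB were listed at 0 and have copies on alternate contigs.

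The 27 regulators of CD274, among them the interferon pathway and the proteins that stabilise or degrade PD-L1, were all tested. Of these 11 were higher, 9 lower and 7 did not pass (median 0.14), and with scaling to total counts 14 were higher and 4 lower. IRF9, a factor of interferon signalling, rose from 399.8 ± 12.4 to 1114 ± 122.5 (log2 fold change 1.47), CMTM3 (1.25), of the family of the PD-L1 stabiliser CMTM6, and IFNGR2 (0.87), a subunit of the interferon-gamma receptor, also rose, and JUN, an AP-1 subunit, rose by a little (0.34, adjusted p = 1.7e-04, limma). With erlotinib JUN had the highest mean signal of the list, while in DMSO MYC was highest (13421 ± 715.8). HIF1A, the hypoxia factor, fell from 9201 ± 445 to 4455 ± 205.3 (-1.05), as did STT3A (-0.75), a subunit of the enzyme that glycosylates PD-L1, and NFKB1 (-0.55). CMTM3 overlaps CMTM4, which has the higher signal.

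The genes around NT5E in extracellular adenosine numbered 18, of which 13 were tested, with 5 higher, 5 lower and 3 that did not pass (median -0.15). ADORA2B, an adenosine receptor, had a signal of 1872, 1787 and 1863 in DMSO and 367.3, 316.8 and 401.6 with erlotinib, without overlap (log2 fold change -2.35, adjusted p = 1.3e-14, limma). SLC29A1, which carries adenosine across the membrane, fell from 1248 ± 83.5 to 279.2 ± 4.59 (-2.15), and ENTPD1 (CD39), which makes the AMP that NT5E uses, from 495.2 ± 82.9 to 211.9 ± 14.3 (-1.21). Of the enzymes of the CD39 family, ENTPD8 rose from 7.17 ± 5.50 to 84.6 ± 9.45 (3.66, and 3.04 without DMSO library 2). Its value ranged from 2.507 to 4.173 over the alternatives. ENTPD8 overlaps NOXA1, which was also higher on average (64.5 and 440.9). ENTPD2 rose from 11.0 ± 5.81 to 33.7 ± 9.88 (1.61, and 1.07 with a pseudocount of 10). DPP4, which binds adenosine deaminase, rose from 1614 ± 51.8 to 3047 ± 17.4 (0.92). With erlotinib DPP4 had the highest mean signal of the list, while in DMSO ADORA2B was highest.

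Of the 15 CD47 partners and phagocytosis signals, 12 were tested, with 4 higher, 3 lower and 5 that did not pass (median 0.13), and with scaling to total counts 7 were higher. LRP1, a receptor of calreticulin, rose from 100 ± 25.5 to 581.5 ± 55.9 (log2 fold change 2.56), MFGE8, a bridge to phosphatidylserine, from 209.9 ± 25.6 to 672.5 ± 33.9 (1.68), and ITGAV, an integrin subunit, by 0.48 (log2). SIRPA, the receptor of CD47, was low and fell (109.7 ± 17.6 to 58.5 ± 18.1, -0.92, adjusted p = 0.0022, limma), as did CALR (23306 ± 767 to 15087 ± 647.3, -0.63), the calreticulin that promotes engulfment when on the surface, and SLAMF7 (-0.51). CALR had the highest signal of the list.

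Class I antigen presentation could be followed only in part, since 9 of the 19 genes were not tested and all 9 have copies on alternate contigs. Of the 10 tested, 8 were higher and 2 lower (median 0.63). TAPBPL (381.3 ± 34.8 to 1295 ± 6.99, log2 fold change 1.76), PSME2 (0.96) and PSMB10 (0.86), of the peptide editing and proteasome steps, rose most, and CANX (-0.58), an endoplasmic reticulum chaperone with the highest signal of the list, and PDIA3 (-0.46) fell. Of 192 genes checked, which are the ligands, the list genes and EGFR, 17 had a copy on such a contig and 40 had a mean signal under 1. Among the latter, 14 had a copy.

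Of 18 genes for immune cell receptors and other partners of these and related ligands, 15 were under the minimum for testing, 2 were higher, 0 were lower and 1 did not pass (median 1.11). Of them, PDCD1, TIGIT, KLRK1, TREML2 and LTA were listed at 0 in all libraries, PDCD1 and LTA with copies on alternate contigs, so that their levels are not known from these data. LTA and TNFSF14 on the list are ligands of TNFRSF14. PVRIG, the receptor of NECTIN2 and the highest of the list, had a signal of 170.2, 130.9 and 134.9 in DMSO and 729.9, 636.5 and 786.3 with erlotinib, without overlap (log2 fold change 2.301, adjusted p = 3.5e-12, limma). PVRIG overlaps STAG3 and CASTOR3P, which were also higher on average (36.1 and 213, and 190 and 1292), and without a stated strand their reads cannot be told apart. CD200R1 rose from 32.6 ± 5.88 to 71.5 ± 11.2 (1.11, adjusted p = 0.0015, limma), and KLRG1, the third tested, did not pass.

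Of the 14 markers of lung epithelial and adenocarcinoma cells, 12 were tested, with 6 higher, 4 lower and 2 that did not pass (median 0.20). MUC1, an epithelial mucin, rose from 419.7 ± 50.1 to 2961 ± 103.3 (log2 fold change 2.82), NAPSA and the epithelial factor ELF3 (1.70) rose too, and the keratins KRT18 (-1.25), KRT8 (-0.83) and KRT7 (-0.63), which had the highest signal of the list, fell. KRT8 has a copy elsewhere in the genome and overlaps KRT18. For the list genes said above to have risen or fallen without a p-value of their own, the adjusted p-values were at most 0.0049 (limma, Benjamini-Hochberg). In libraries from whole cultures, a change in every cell and a change in some of the cells cannot be told apart.

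**Figure D4:**
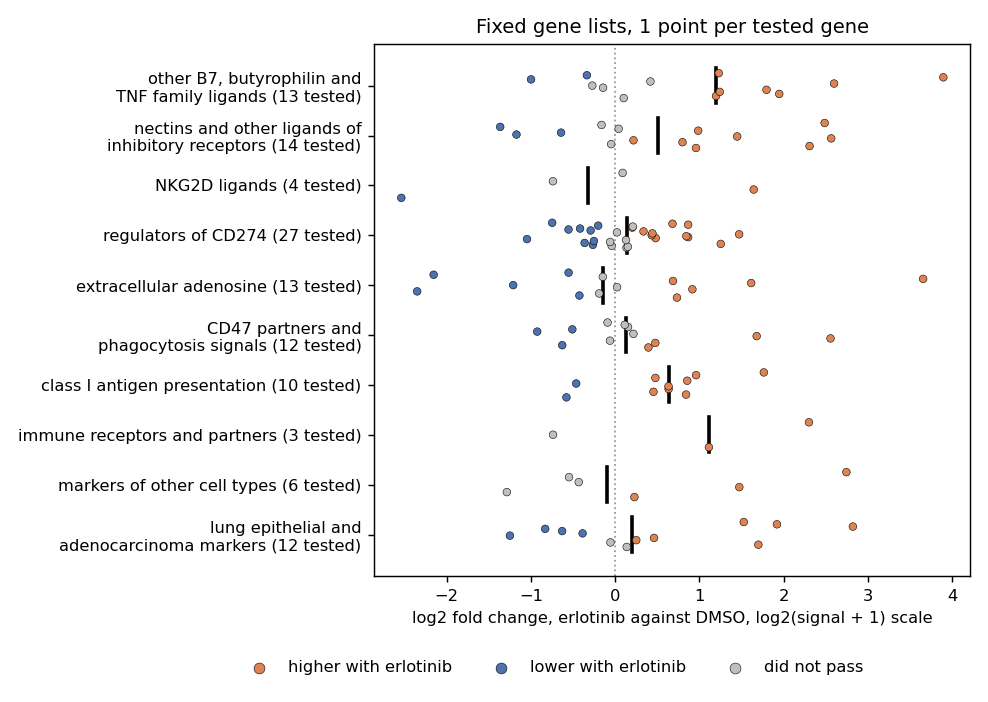
Log2 fold change (erlotinib against DMSO, log2(signal + 1) scale) of each tested gene in the 10 lists, with genes that passed the test higher in orange, lower in blue and those that did not pass in grey, and a bar at the median of each list. The other B7, butyrophilin and TNF family ligands have a median of 1.198, and the adenosine and CD274 regulator lists spread to both sides of 0.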

How the data were processed

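HCC827 RNA enriched with oligo(dT) was sequenced in 6 libraries. Per the labels and the study's methods, the authors aligned paired reads with Bowtie2 2.3.4 to GRCh38, an aligner that does not split reads across introns, counted uniquely mapped reads with featureCounts 1.6.3 (strand not given in the sources used here) and used DESeq2 1.18.1. The deposited signal values are reads divided by the DESeq2 size factor of each library, which were recovered as whole reads for 100% of values (tolerance 0.01). The erlotinib columns carry the numbers 4 to 6, the labels 1 to 3, so single columns were tied to their group only. All columns per sample were used, and 475 genes without a symbol were kept.

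Since the table holds signal, limma-trend was fitted to log2(signal + 1) for genes with a mean of at least 10, two-sided, threshold 0.05. The script was tested on simulated data. The ligands and the gene lists were chosen with earlier results of these data known. From each list the text names up to 3 of the largest rises and falls past the threshold, the gene with the highest signal and, for receptors and other cell types, genes at 0. COL1A2, PTPRC, CD3E, SFTPC, EPCAM, NKX2-1, B2M, MICA, MICB, KLRG1, PECAM1, CSF1R, CD79A, TNFSF14, the neighbours of CD274 and overlapping genes of list members were named outside that rule. Transcript lengths came from GENCODE release 44, positions and promoters from RefSeq (GRCh38.p14, 9 of the 10 ligands with a promoter entry). Copies were sought with minimap2 2.31-r1302 over 261 alternate contigs (at least 90% aligned at 97% identity). Alternatives were edgeR quasi-likelihood with TMM and DESeq2 on recovered reads, total-count scaling, TMM factors in limma, pseudocounts of 0.1 and 10, no filter, at least 10 reads per library, a threshold of 0.01, and each library left out. Replicates differed by more than sampling noise (chi-square divided by its degrees of freedom, 4.13 to 24.3). Software comprised limma 3.58.1, DESeq2 1.42.0 and edgeR 4.0.16 under R 4.3.3, and matplotlib 3.10.9 under Python 3.11.15.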

Additional observations from a re-analysis of the deposited data

How the results depend on the processing

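No ligand changed direction under any of the 14 alternatives for fold changes. CD274, NT5E, PVR and CD47 passed in all 14, VTCN1 and LGALS9 in all 13 that could test them, and the exceptions were PDCD1LG2 (3 alternatives in which it passed), CD276 (1 in which it did not) and NECTIN2 (5 in which it did not). Of the 49 other genes followed, TNFSF9 and CD68 each lost the call in 1 alternative, CD68 without erlotinib library 5 (0.20, adjusted p = 0.051, limma). The minimum of 10 reads in every library removed VTCN1 and LGALS9, which left 2 ligands higher in place of 4. PDCD1LG2 passed with that minimum (-0.73, adjusted p = 0.038, limma) and with a pseudocount of 10 (-0.58, adjusted p = 0.040, limma).

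Scaling to the total count moved the median of all tested genes to 0.19, from 0.02, and gave 6156 genes higher and 3955 lower in place of 5012 and 5031. JUN was then 0.52, CD68 0.41, SLAMF7 -0.33 and PDIA3 -0.28. On recovered reads, edgeR called 5085 genes higher and 4941 lower, and DESeq2 4949 and 4934. Leaving out each library gave 3 to 4 ligands higher, 4 to 5 lower, 4559 to 5127 genes higher and 4721 to 5080 lower. Among list counts, 7 of 20 moved by over 1.5 times in some alternative, among them, with total-count scaling, the regulators of CD274 that were lower (4 in place of 9), the CD47 partners that were higher (7 in place of 4) and the other B7, butyrophilin and TNF family ligands that were lower (1 in place of 2, as with a threshold of 0.01). With at least 10 reads in every library, 0 NKG2D ligands were lower in place of 1 and 3 adenosine genes higher in place of 5, and with no filter 5 markers of other cell types were higher in place of 3. No paired analysis was possible because the erlotinib columns are numbered 4 to 6 and share no number with the DMSO columns. Depth limits PDCD1LG2, and VTCN1 and LGALS9 in DMSO, all at fewer than 60 reads in a library.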
